A study of Rattus norvegicus with 26 samples.

Results

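The genes described here are 7 receptors grouped as microglial purinergic and homeostatic receptors: P2ry12, P2ry13, P2ry6, P2rx4, P2rx7, Gpr34 and Stab1. They were found by gene symbol in the platform's table of probe sets and genes. Of the 7 symbols, 6 had a probe set that carried that symbol alone, 7 probe sets in all, among 14217 genes and 31042 probe sets. P2ry13 had none and is not analysed here. P2ry12 had 2 probe sets, and 1380822_at, the brighter over all arrays, stands for the gene unless stated.

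Microglia are the resident macrophages of the brain. ATP and ADP that leak from damaged or active cells draw their processes through P2Y12, a G protein-coupled receptor for ADP, while P2Y6 answers UDP and drives phagocytosis, and P2X4 and P2X7 are cation channels opened by ATP. GPR34 is a receptor for lysophosphatidylserine, and stabilin-1, the product of Stab1, is a scavenger receptor of macrophages and sinusoidal endothelium. P2ry12 and Gpr34 belong to the genes by which microglia in healthy brain are told from other macrophages, and their level is known to fall when microglia are activated.

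RNA was measured on 26 Affymetrix arrays. There were 16 arrays of primary cultures from the cerebral cortex of rat pups at postnatal day 1, with 4 biological replicates each of neuronal, astrocytic, oligodendrocytic and microglial cultures, and no treatment is named for any of them. On the remaining 10 arrays, RNA of these cultures had been mixed in 5 proportions, with 2 arrays of each. Neuronal RNA made up a fraction of 0.25 in NA1, 0.5 in NA2 and 0.75 in NA3, and astrocytic RNA made up the rest. The fractions in NAO were 0.5 neuron, 0.25 astrocyte and 0.25 oligodendrocyte. Those in NAOM were 0.5 neuron, 0.2 astrocyte, 0.2 oligodendrocyte and 0.1 microglia. NAOM is thus the mixture into which microglial culture RNA was put, from microglial replicate 2 for its replicate 1 and from microglial replicate 3 for its replicate 2. The description of microglial replicate 4 reads as a mixture, although its title and cell type name a microglial culture. It was kept as a culture, and without it the same number of members, 4 of 6, passed the comparison with oligodendrocyte cultures. Strain, sex, days in culture and the way each cell type was separated are not given in the sources used here. Nothing in the labels ties a replicate number to a shared litter or day among the cultures, so p-values measure the spread between these arrays.

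Values are log2 expression values, so a difference of 1 is a doubling. A level was set against the median of its array, which lay between 5.25 and 5.41. A probe set below that median was taken to be near background, and a fold change from such a level is a lower bound. Levels of different probe sets are not compared with each other, since each has its own brightness.

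The 7 genes lie at 5 places of the rat genome (RefSeq, GRCr8), and 2 of these places hold neighbouring members. P2ry12 (chr2:145631487-145673194) and P2ry13 (chr2:145620321-145624730) are 6.76 kb apart, and both lie inside the span of Med12l. P2rx4 (chr12:39505438-39523349) and P2rx7 (chr12:39550531-39594984) are 27.2 kb apart. P2ry6 is at chr1:164707188-164742689, Gpr34 at chrX:11777667-11786640 inside the span of Cask, and Stab1 at chr16:6336871-6367374.

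The 250 bases before the transcript start that the RefSeq promoter table uses for a gene were searched for GAGGAA, the core letters of sites bound by the myeloid factor PU.1, because 4 of the 6 measured members were higher in microglial than in oligodendrocyte cultures together. RefSeq promoters (GRCr8) were matched for 5 of the 7 members, and none was held for P2ry12 and P2ry6. Of the 4 members higher in microglial cultures, the search thus covered P2rx4, Gpr34 and Stab1. That start is not always the outermost end of the gene. All 250 bases lay inside the gene's annotated span for P2rx4, Gpr34 and P2ry13, as did 62 of them for P2rx7 and 15 for Stab1. The motif was found, on either strand, in 4 of these 5 windows, those of P2rx4, P2rx7, Gpr34 and Stab1. P2ry13 did not hold these letters in its window. Of 33469 rat promoters of the same length, 23.3% held it. The AP-1 motif TGANTCA and the composite PU.1 and IRF element, searched on both strands, were in none of the 5 windows and in 6.34% and 2.48% of all promoters. A match here is a string of letters and not a measured binding site. P2rx7 and Stab1 are shown at length because both hold the motif while P2rx7 was near background on every array and Stab1 was not, in both cases by the bases outside the gene's span, and P2rx4 and Gpr34 by 30 bases inside the span that hold it. Capitals mark the motif, which in Gpr34 is on the other strand and reads TTCCTC. All 4 genes are on the minus strand, and the stretches are chr16:6367375-6367609, chr12:39594985-39595172, chr12:39523307-39523336 and chrX:11785837-11785866 in the order shown.
Stab1: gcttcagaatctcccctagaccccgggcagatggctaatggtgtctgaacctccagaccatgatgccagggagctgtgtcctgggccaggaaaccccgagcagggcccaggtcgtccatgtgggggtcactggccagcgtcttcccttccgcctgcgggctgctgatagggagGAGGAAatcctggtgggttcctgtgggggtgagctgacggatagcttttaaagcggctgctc
P2rx7: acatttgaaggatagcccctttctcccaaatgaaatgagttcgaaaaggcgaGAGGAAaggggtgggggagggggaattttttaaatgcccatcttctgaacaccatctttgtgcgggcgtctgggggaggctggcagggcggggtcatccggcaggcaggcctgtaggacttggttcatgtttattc
P2rx4: ctttgcaaccggGAGGAAcccatctgcctc
Gpr34: gtcgagggagctttgggtTTCCTCctttac
Counted from the table's transcript start, the motif began 77 bases before it in Stab1, 198 in P2rx7, 235 in P2rx4 and 12 in Gpr34. In P2rx4 and Gpr34 that position is within the gene as annotated and not upstream of it.

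Microglial and oligodendrocyte cultures were compared first, array by array. P2ry12, P2rx4, Gpr34 and Stab1 were higher in microglial cultures, by 3.76-fold (P2rx4) to at least 30.2-fold (Gpr34), and for each of them every microglial array lay above every oligodendrocyte array. P2ry6, the UDP receptor, stood at similar heights in both cultures, with overlapping arrays. P2rx7 was below the array median on all 26 arrays. So 4 of the 6 measured members passed the test as higher and 0 as lower (also 4 and 0 at an unadjusted p under 0.05), where 4.29% of all probe sets passed as higher and 6.27% as lower. Likewise 4 of 6 did not overlap, against 14.8% of all probe sets. The test was limma's moderated test on all 16 culture arrays with Benjamini-Hochberg adjustment over all probe sets, at an adjusted p under 0.05 and a log2 difference of at least 1. In RNA from whole cultures, fewer cells of a type and less RNA per cell cannot be told apart.

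The log2 level of P2ry12, the ADP receptor, was 9.06, 9.95, 10.24 and 10.06 in microglial replicates 1 to 4. In oligodendrocyte cultures it was 5.63, 6.49, 6.03 and 6.52. Even the lowest microglial array was well above the highest oligodendrocyte array, and all oligodendrocyte arrays were above the array median. The log2 difference was 3.66 ± 0.23 (SE, n = 4 and 4 arrays), a fold of 12.7 (limma, adjusted p = 8.94e-08), and over the 16 pairs of arrays it ran from 2.55 to 4.61. The second probe set, 1368728_at, gave 5.45, 7.78, 8.14 and 8.17 in microglial cultures and 4.21, 4.29, 4.95 and 4.86 in oligodendrocyte cultures. Its microglial replicate 1 stood apart from the other 3, yet still above all oligodendrocyte arrays, which were below the array median. The log2 difference by this probe set was 2.81 ± 0.44 (SE), at least 7.01-fold (limma, adjusted p = 0.00025), and 3.46 without microglial replicate 1. Both probe sets thus placed P2ry12 higher in microglial cultures, with sizes that differed.

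P2ry6, the receptor for UDP, behaved differently. Its log2 level was 8.03, 9.06, 9.26 and 10.49 in microglial cultures and 8.10, 8.66, 9.20 and 8.80 in oligodendrocyte cultures. The arrays overlapped: the lowest microglial array lay under all 4 oligodendrocyte arrays, and the highest was above them all. The log2 difference was 0.52 ± 0.41 (SE), with a 95% interval from -0.35 to 1.39 (limma, adjusted p = 0.378), and microglia were higher in 11 of 16 pairs. A difference as large as that of P2rx4 lies outside this interval, but a doubling does not. Leaving out microglial replicate 4 moved the difference to 0.09 and leaving out microglial replicate 1 moved it to 0.91, and it did not pass in either case.

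P2rx4, an ATP-gated channel of the plasma membrane and lysosome, had log2 levels of 9.40, 9.50, 10.08 and 10.26 in microglial cultures. In oligodendrocyte cultures these were 7.61, 7.98, 7.79 and 8.23. The groups were tight and did not overlap. Microglial cultures were higher by 1.91 ± 0.22 (SE) on the log2 scale, a fold of 3.76 (limma, adjusted p = 1.91e-05), the smallest of the 4 members that passed.

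P2rx7, the channel that opens a large pore at high ATP and triggers interleukin-1β release, gave no level clear of background. Its log2 values ran from 3.59 to 4.19 in microglial cultures and from 3.52 to 3.63 in oligodendrocyte cultures. They differed by 0.29 ± 0.14 (SE, limma, adjusted p = 0.134). With 1 dim probe set, a difference between cultures was not detectable here, which is not a measure of whether the channel is present.

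Gpr34, the lysophosphatidylserine receptor, showed the largest difference among the members. Its log2 level was 8.02, 9.28, 9.21 and 9.06 in microglial cultures and 3.65, 4.07, 3.93 and 4.25 in oligodendrocyte cultures. All oligodendrocyte arrays were below the array median, where every microglial array was well above it. The log2 difference was 4.92 ± 0.23 (SE), at least 30.2-fold (limma, adjusted p = 5.22e-09), with the 5th smallest p of 31042 probe sets.

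Stab1, the scavenger receptor, had nearly the same log2 level in all microglial arrays, 10.85, 10.81, 10.87 and 11.14. In oligodendrocyte cultures it varied more, at 6.76, 7.45, 7.37 and 8.33. No arrays overlapped, and all 8 were above the array median. The log2 difference was 3.44 ± 0.32 (SE), a fold of 10.9 (limma, adjusted p = 2.08e-06). With each of the 8 arrays left out in turn, the difference ranged from 3.20 to 3.73.

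**Figure D1:**
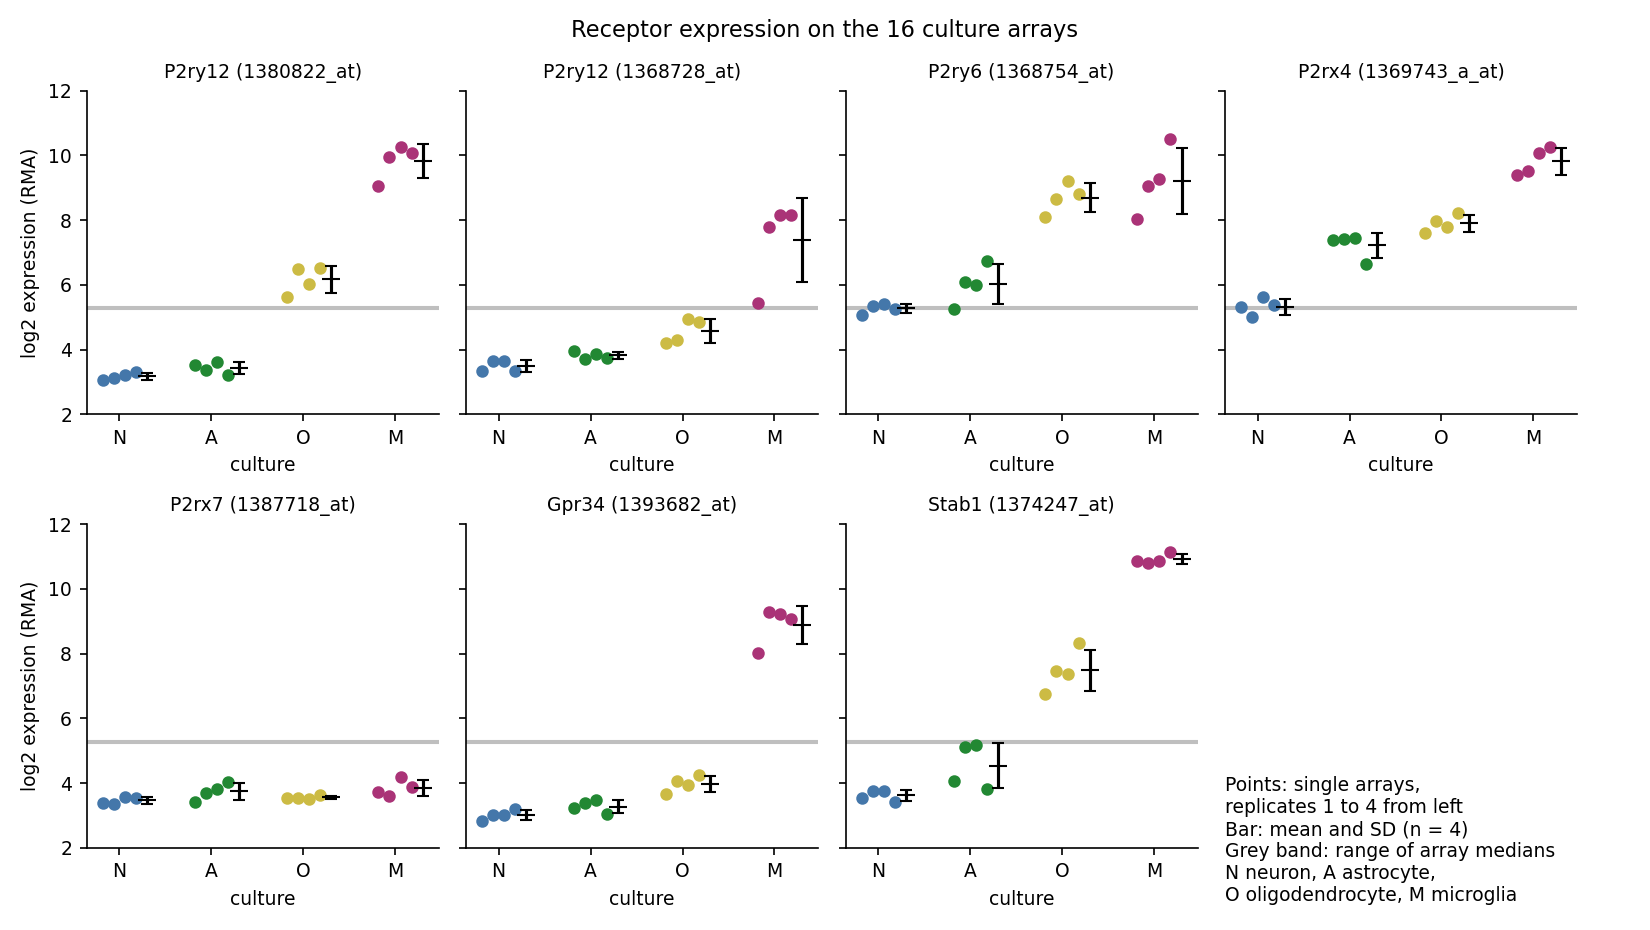
Log2 expression of the 6 measured members and the second P2ry12 probe set on each of the 16 culture arrays, by culture; points are arrays, the grey band is the range of array medians, and the mark beside the points is the culture mean with its SD (n = 4). Microglial points lie clear above oligodendrocyte points for P2ry12, P2rx4, Gpr34 and Stab1, overlap them for P2ry6, and stay below the array median for P2rx7.

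**Figure D2:**
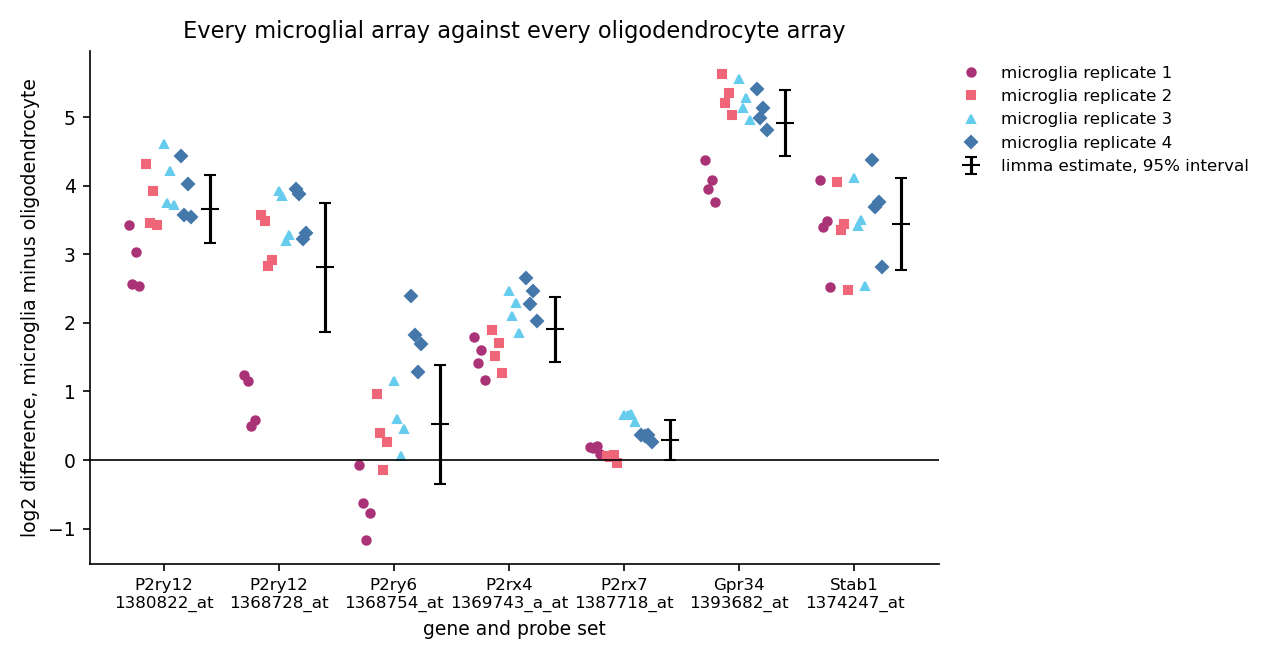
Log2 difference, microglial minus oligodendrocyte array, for each of the 16 pairs of arrays per probe set, with the limma estimate and its 95% interval. All pairs are above 0 for P2ry12, P2rx4, Gpr34 and Stab1, while for P2ry6 11 of 16 are.

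The oligodendrocyte cultures held transcripts of other macrophage genes as well. Of 13 measured microglia markers (Aif1, Itgam, Cd68, Ptprc, C1qa, C1qb, C1qc, Tyrobp, Fcer1g, Laptm5, Csf1r, Cd53 and Ctss), 13 were higher in oligodendrocyte than in astrocyte cultures and 13 were higher than in neuronal cultures. All 13 were above the array median on every oligodendrocyte array. Their summed linear level was 11716 to 20789 in oligodendrocyte arrays, 50892 to 65076 in microglial arrays, 367 to 1688 in astrocyte arrays and 366 to 431 in neuronal arrays. In turn, 11 oligodendrocyte markers summed to 5115 to 14835 in microglial arrays against 21739 to 49016 in oligodendrocyte arrays. Each of these culture labels was therefore borne out by its own markers, and each culture also held the other's. Neuron markers (8 genes) summed to 19672 to 24460 in neuronal arrays and at most 5408 in other cultures, and astrocyte markers (7 genes) to 15951 to 43772 in astrocyte arrays and at most 15212 elsewhere. The part of these transcripts in the members' levels was not tested.

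The members differed in how much of their microglial level was seen in oligodendrocyte cultures. For the 13 markers, the oligodendrocyte mean was 15.6% (C1qc) to 69.1% (Itgam) of the microglial mean on a linear scale, with a median of 26.5%. Gpr34 at 3.31%, P2ry12 at 7.89% and Stab1 at 9.20% lay below the lowest marker, and P2rx4 at 26.6% lay close to their median. By its second probe set P2ry12 was at most 14.3%, close to the lowest marker. P2ry6 at 69.7% lay just above the highest marker, and P2rx7 at 81.7% reflects 2 levels near background. A share below the lowest marker was not limited to the members. Of the microglial homeostasis genes described below, Slco2b1 (at most 5.78%), Irf8 (12.3%), Mertk (12.8%) and Bin2 also lay there. The others of that list lay above the lowest marker, from 18.6% (Tgfbr1) to 251% (Sall1). These are descriptions over genes that share the same arrays, and for Gpr34 the percentage is an upper bound because its oligodendrocyte level is near background.

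Each member was also set against the mean of the markers on the same array. The same marker mean is subtracted for every member, so the order of the members is fixed by the percentages above. These values add the spread between arrays and are not a second test of that order. P2ry12 minus the mean log2 of the 13 markers averaged -1.86 (SD 0.36, n = 4) in microglial arrays and -3.68 (SD 0.36, n = 4) in oligodendrocyte arrays. For Gpr34 these values were -2.80 (SD 0.43) and -5.88 (SD 0.38), and for Stab1 -0.78 (SD 0.15) and -2.38 (SD 0.47). All 3 therefore stood lower against the markers in oligodendrocyte cultures, P2ry12 by its brighter probe set. By its second probe set, P2ry12 averaged -4.31 (SD 1.11) in microglial and -5.27 (SD 0.37) in oligodendrocyte arrays. These arrays overlapped, at -5.96 to -3.60 and -5.74 to -4.83. For P2rx4 both values were alike, -1.88 (SD 0.28) and -1.95 (SD 0.43). P2ry6 ran the other way, with -2.48 (SD 0.81) in microglial and -1.16 (SD 0.20) in oligodendrocyte arrays.

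**Figure D3:**
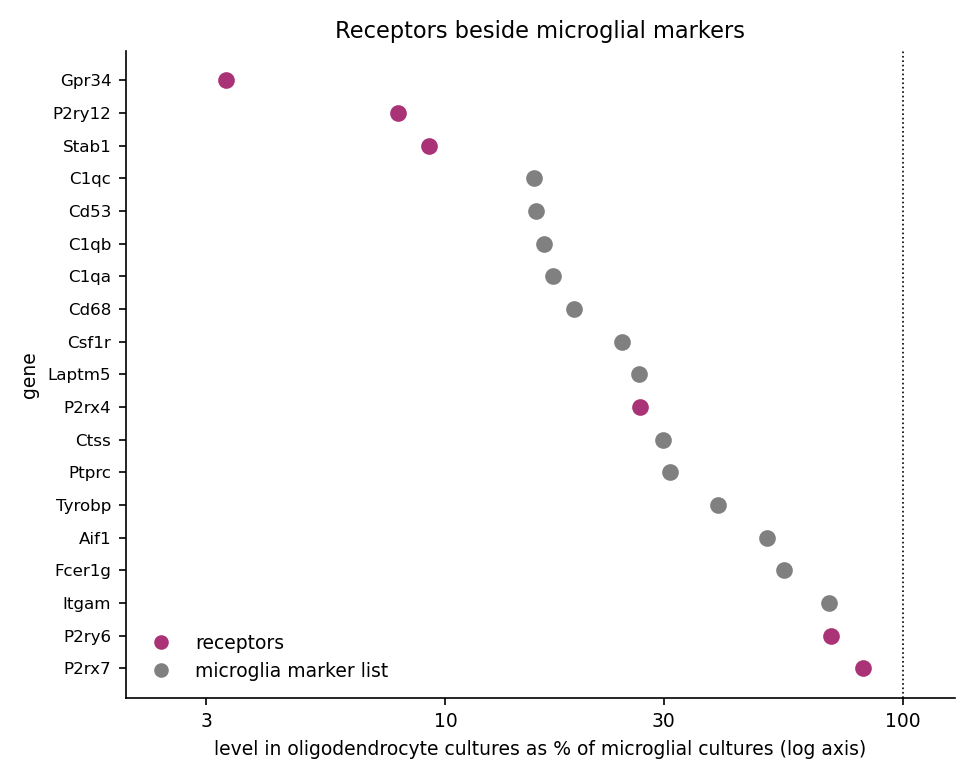
Oligodendrocyte culture mean as a percentage of the microglial culture mean (linear scale, log axis) for the 6 members and 13 microglia markers. Gpr34, P2ry12 and Stab1 lie at 3.31% to 9.20%, below the 15.6% of the lowest microglia marker, and P2ry6 lies at 69.7%.

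Against astrocyte cultures, 5 of 6 members passed as higher in microglial cultures, where 7.05% of all probe sets did. Against neuronal cultures 5 of 6 passed as well, where 11.6% of all probe sets did. Arrays did not overlap for 5 of 6 members against astrocyte cultures and for 6 of 6 against neuronal cultures, where 19.9% and 26.9% of all probe sets did not. The exception to the calls in both was P2rx7. P2ry12 was 3.52, 3.38, 3.61 and 3.20 in astrocyte and 3.05, 3.11, 3.23 and 3.30 in neuronal cultures, all below the array median and partly overlapping. Microglial cultures exceeded these by at least 84.6-fold and 101-fold, with log2 differences of 6.40 and 6.66 (SE 0.23 for both, limma, adjusted p = 4.25e-11 and 6.54e-12). Gpr34 was likewise below the median in all astrocyte and neuronal arrays, between 2.83 and 3.47, and microglial cultures were higher by at least 49.1-fold and 58.8-fold (limma, adjusted p = 1.06e-10 and 1.68e-11).

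Stab1 in astrocyte cultures was 4.05, 5.11, 5.17 and 3.82, so that replicates 2 and 3 stood above replicates 1 and 4. The summed level of the 13 microglia markers was 418, 1602, 1688 and 367 in the same 4 arrays, again high in replicates 2 and 3, and their part in the Stab1 values was not tested. In neuronal cultures Stab1 was 3.55, 3.74, 3.77 and 3.42, below all astrocyte arrays. Microglial cultures exceeded astrocyte cultures by 6.38 ± 0.32 (SE) on the log2 scale, at least 83.2-fold (limma, adjusted p = 6.79e-10), and neuronal cultures by 7.30 ± 0.32, at least 157-fold (limma, adjusted p = 5.25e-11).

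P2rx4 and P2ry6 were the members with levels above the array median in astrocyte cultures, on 4 and 3 of the 4 arrays. P2rx4 was 7.38, 7.42, 7.43 and 6.65 in astrocyte cultures, with replicate 4 apart from the other 3, and 5.32, 5.01, 5.61 and 5.37 in neuronal cultures. P2ry6 was 5.24, 6.08, 5.99 and 6.75 in astrocyte cultures and 5.07, 5.34, 5.41 and 5.26 in neuronal cultures, with overlap. The microglial level of P2rx4 exceeded that of astrocyte cultures by 2.59 ± 0.22 (SE) and that of neuronal cultures by 4.49 ± 0.22 on the log2 scale (limma, adjusted p = 2.37e-07 and 2.07e-10). For P2ry6 the microglial excess was 3.19 ± 0.41 over astrocyte and 3.94 ± 0.41 over neuronal cultures (limma, adjusted p = 1.55e-05 and 7.67e-07).

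Oligodendrocyte cultures stood above astrocyte cultures for P2ry12, P2ry6 and Stab1, 3 of 6 members where 7.85% of all probe sets passed as higher. The arrays of these cultures did not overlap for 5 of 6 members, against 17.4% of all probe sets. The log2 differences were 2.74 ± 0.23 for P2ry12, 2.67 ± 0.41 for P2ry6 and 2.94 ± 0.32 for Stab1 (limma, adjusted p = 2.75e-07, 0.000101 and 3.21e-06). By its second probe set, P2ry12 differed by 0.76 ± 0.44 and did not pass (limma, adjusted p = 0.219), with both cultures below the array median. P2rx4 and Gpr34 differed by 0.68 ± 0.22 and 0.70 ± 0.23 (limma, adjusted p = 0.0259 and 0.0251), short of the minimum log2 difference of 1. Against neuronal cultures 4 of 6 passed as higher, where 10.6% of all probe sets did (5 of 6 without overlap, against 21.9%), the same 3 and P2rx4, whose difference was 2.58 ± 0.22 (limma, adjusted p = 1.42e-07). Gpr34 differed from neuronal cultures by 0.96 ± 0.23 (limma, adjusted p = 0.00261), again short of the minimum and within the range near background.

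The order of the cultures was therefore microglia, oligodendrocyte, astrocyte and neuron for P2ry12, P2ry6, P2rx4, Gpr34 and Stab1, by their means. Neighbours in that order overlapped between astrocyte and neuronal cultures for P2ry12, P2ry6 and Gpr34, and between microglial and oligodendrocyte cultures for P2ry6. All 3 steps were free of overlap for P2rx4 and Stab1, though the lowest astrocyte array of Stab1 was 3.82 and the highest neuronal array 3.77. All astrocyte and neuronal arrays of P2ry12, Gpr34 and Stab1, and all oligodendrocyte arrays of Gpr34, were below the array median. The order among those cultures is therefore within the range near background. For P2rx7 the order was microglia, astrocyte, oligodendrocyte and neuron, and all 3 steps overlapped.

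Across the 16 culture arrays, the members' profiles were alike to different degrees, given as a description since these arrays share 4 cultures. Pearson's r was 0.985 between P2ry12 and Stab1, 0.952 between P2ry12 and Gpr34 and 0.940 between P2rx4 and Stab1. It was lowest among the members above background between P2ry6 and Gpr34, at 0.735, and lay between 0.430 and 0.561 for P2rx7 with each of the other 5. The genes most like the mean of the 6 members were Dock8 (r = 0.990), Irf8 (0.989), Nt5e (0.988), Fes (0.988) and Tmem37 (0.988). For P2ry12 alone they were Sash3, Tmem37 and Fes, with r from 0.991 to 0.992, and for Stab1 Tmem37, Cd37 and Nrros, with r from 0.989 to 0.993. For Gpr34 they were Klhl30, Lrmda and C130050O18Rikl (0.988 to 0.990), for P2rx4 Lgmn, Dnase2 and Unc93b1 (0.980 to 0.981), and for P2ry6 Samsn1, Pla2g4a and Fcgr1a (0.974 to 0.978). Of the 3 nearest to P2ry6, the oligodendrocyte and microglial log2 means were 7.43 and 7.89 for Samsn1, 8.88 and 9.30 for Pla2g4a and 9.23 and 10.33 for Fcgr1a. Those nearest to P2rx7, Dcm5, Kcnv2 and Hoxd3 (0.903 to 0.950), were below the range of array medians in all 4 culture means.

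Few other receptors for nucleotides and adenosine passed the same comparison. Of 5 other P2X receptors (P2rx1, P2rx2, P2rx3, P2rx5 and P2rx6), 0 passed by limma between microglial and oligodendrocyte cultures and 2 had an unadjusted p under 0.05. The median log2 difference of these 5 was 0.08 where that of all probe sets was 0.07. All 5 were below the array median on every array of both cultures, so they are near background and a difference could be missed. The 5 other P2Y receptors were below the array median on every oligodendrocyte array. Of them, P2ry14, a receptor for UDP-sugars about 68.4 kb from P2ry12, passed as higher in microglial cultures. Its log2 level was 3.68 to 6.14 in microglial cultures, with 1 array above the array median, and 3.34 to 3.72 in oligodendrocyte cultures. The groups differed by 1.14 ± 0.37 (SE, limma, adjusted p = 0.0331), and the call was lost without microglial replicate 2, without microglial replicate 4 and without each of the 4 oligodendrocyte arrays in turn. Of 3 measured adenosine receptors, 0 passed by limma, and 0 had an unadjusted p under 0.05.

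Genes for the enzymes, transport and release of nucleotides and adenosine, inside or outside the cell, were mixed. Of 16 measured, 2 were higher and 3 lower in microglial than in oligodendrocyte cultures, with a median log2 difference of -0.04. Nt5e, which makes adenosine from AMP, was higher by 2.64 ± 0.21 (limma, adjusted p = 5.57e-07), and Slc29a1, a nucleoside transporter, by 1.08 ± 0.18 (limma, adjusted p = 0.000392). Enpp2, a lysophospholipase D of oligodendrocytes, was lower, at 7.66 (SD 0.86) in microglial against 10.66 (SD 0.22) in oligodendrocyte cultures (limma, adjusted p = 0.00102). Panx1, an ATP release channel, and Entpd5 were lower too, with differences of -1.48 and -1.05 (limma, adjusted p = 0.00156 and 0.029). The Entpd5 call was lost without microglial replicate 1 or 3 and without oligodendrocyte replicate 1, 2 or 4, and the Slc29a1 call was lost without microglial replicate 3.

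Of 8 measured effectors of the receptors, 4 were higher in microglial cultures and 1 was lower. Kcnk13, which encodes the potassium channel THIK-1 that P2Y12 activates in microglia, was higher by 1.48 ± 0.19 (limma, adjusted p = 3.91e-05). Rgs10, a regulator of G protein signalling, was higher by 2.95 ± 0.30 (limma, adjusted p = 5.27e-06). Pycard and Casp1, the inflammasome adaptor and protease downstream of P2X7, were higher by 1.19 ± 0.33 and 1.61 ± 0.43 (limma, adjusted p = 0.0133 and 0.0109). Il1b, the cytokine released by that route, went the other way. Its log2 level was 9.44 to 12.80 in oligodendrocyte cultures and 7.77 to 10.25 in microglial cultures, a difference of -2.45 ± 0.58 (limma, adjusted p = 0.00553).

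Among 12 measured genes of microglial homeostasis, 9 were higher in microglial than in oligodendrocyte cultures and 1, Sall1, was lower. The largest was Slco2b1, an organic anion transporter, at 4.11 ± 0.25 (limma, adjusted p = 6.18e-08). In oligodendrocyte cultures Slco2b1 was above the array median on 1 of 4 arrays, so its level there, at most 5.78% of the microglial level, is near background like that of Gpr34. Irf8 and Mertk, a myeloid transcription factor and a phagocytic receptor, were higher by 3.02 ± 0.32 and 2.96 ± 0.44 (limma, adjusted p = 7.45e-06 and 0.000162), and the fractalkine receptor gene Cx3cr1 by 1.64 ± 0.36 (limma, adjusted p = 0.00296). The arrays of Cx3cr1 overlapped, at 5.01 to 7.55 in microglial and 4.50 to 5.23 in oligodendrocyte cultures. Tmem119 did not pass, with levels of 7.60 (SD 0.47) in microglial and 7.06 (SD 0.86) in oligodendrocyte cultures. Sall1, a transcription factor of microglia that is also active in other neural cells, differed by -1.33 ± 0.42 (limma, adjusted p = 0.0297), and this call was lost without microglial replicate 4 and without oligodendrocyte replicate 1, 2 or 4.

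Beside Stab1, 7 other scavenger receptors were measured, of which Mrc1 and Colec12 were higher in microglial than in oligodendrocyte cultures, by 2.99 ± 0.58 and 1.59 ± 0.26 (limma, adjusted p = 0.00129 and 0.000329). Mrc1, the mannose receptor, is also a marker of the macrophages of the brain's borders. Of 6 measured border macrophage markers, 4 (Mrc1, Lyve1, Pf4 and Folr2) were higher in microglial cultures, and the list summed to 7497 to 8558 there and to 633 to 3694 in oligodendrocyte cultures. The arrays of Lyve1 overlapped, at 4.34 to 7.52 in microglial and 3.46 to 4.76 in oligodendrocyte cultures. Its call was lost without microglial replicate 1 and without oligodendrocyte replicate 1. Cd163, another of the 6 markers, was below the array median on all 16 culture arrays, at a mean of 3.43 in microglial cultures. Stab1 and this list both had their highest oligodendrocyte value in replicate 4. The part of border macrophages in the Stab1 level was not tested. Endothelial markers (5 genes) and T and B cell markers (4 genes) were all below the array median in the 16 culture arrays.

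A chosen list of 19 genes around the members on the chromosome was looked at for the same direction. It was not the full set of nearest genes. It lacked Ift81, Relt and Uqcc5, which had probe sets, and held P2ry1 and Kdm2b, which are not among the nearest. Of 14 measured, 1 was higher in microglial than in oligodendrocyte cultures, P2ry14, and 1 was lower, Cask, in whose span Gpr34 lies. Of all probe sets, 4.29% passed as higher and 6.27% as lower, so these counts are near the shares over all probe sets. Cask, a synaptic scaffold kinase, differed by -1.16 ± 0.19 (limma, adjusted p = 0.000392), opposite in direction to Gpr34.

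The mixtures asked whether the members could be seen when culture RNA was diluted. In NAO, oligodendrocyte RNA at 0.25 replaced part of the astrocytic RNA of NA2, which fell from 0.5 to 0.25. P2ry12 and Stab1 were higher in NAO than in NA2, 2 of 6 members where 0.902% of all probe sets passed as higher. In NAOM, microglial RNA at 0.1 came in as the astrocyte and oligodendrocyte fractions each fell from 0.25 to 0.2. P2ry12 and Gpr34 were higher in NAOM than in NAO, 2 of 6 members where 0.0419% of all probe sets, 13 in number, did. The test was limma's on the 10 mixture arrays at an adjusted p under 0.05, with no minimum difference because dilution caps it. Replicates of the mixtures share their parent cultures by number, so each comparison was also fitted with the replicate as a block. With the block, P2ry6 also passed between NAO and NA2, making 3 of 6 members where 1.85% of all probe sets passed as higher. P2ry12 and Gpr34 passed again between NAOM and NAO with the block, where 0.119% did. Arrays did not overlap for 3 of 6 members at the NAO step and 4 of 6 at the NAOM step, against 19.4% and 16.7% of all probe sets. Both comparisons use the NAO arrays, so their values are set side by side and not related to each other.

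P2ry12 had log2 levels of 3.36 and 3.23 in NA2, 3.85 and 3.83 in NAO and 6.07 and 5.96 in NAOM. NAOM alone was above the array median, and no arrays overlapped at either step. The NAOM step was 2.18 ± 0.09 (SE, n = 2 and 2 arrays), at least 4.53-fold (limma, adjusted p = 0.00114), the smallest p of 31042 probe sets. With the block the adjusted p was 0.00117, and leaving out any single array of the comparison kept the call (adjusted p from 0.0239 to 0.0454). Fitted on the NAO and NAOM arrays alone it did not pass (limma, adjusted p = 0.206). The NAO step was 0.55 ± 0.09 (limma, adjusted p = 0.0494, with the block 0.0268), within the range near background, and it no longer passed when any single array was left out (adjusted p from 0.172 to 0.332). The second probe set gave 3.79 to 3.87 in NAO and 4.25 to 4.75 in NAOM, all below the array median, and 0.67 ± 0.18 did not pass (limma, adjusted p = 0.891, with the block 0.348).

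Gpr34 had log2 levels of 3.28 and 3.25 in NAO and 5.03 and 4.88 in NAOM, and stayed below the array median in all mixtures. Every NAOM array was above every other mixture array, the highest of which was 3.42. The difference was 1.69 ± 0.12 (SE), at least 3.22-fold (limma, adjusted p = 0.0117, with the block 0.00442), the second smallest p of all probe sets. Leaving out any single array ended the call (adjusted p from 0.0541 to 0.187), with differences from 1.61 to 1.76, as did a fit on the NAO and NAOM arrays alone (adjusted p = 0.245). Between NAO and NA2 the difference was -0.00 ± 0.12, so oligodendrocyte RNA at a fraction of 0.25 brought no detectable Gpr34.

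Stab1 had log2 levels of 3.86 and 3.57 in NA2, 5.06 and 6.11 in NAO and 7.62 and 7.65 in NAOM. The 3 mixtures did not overlap, and NAO replicate 2 stood well above NAO replicate 1, as its oligodendrocyte parent, replicate 4 at 8.33, stood above that of replicate 1, replicate 2 at 7.45. The NAO step was 1.87 ± 0.32 (SE), at least 3.64-fold (limma, adjusted p = 0.0497, with the block 0.0183). Of the 4 ways to leave out a single array, 3 ended that call. The NAOM step was 2.05 ± 0.32, a fold of 4.14, but did not pass (limma, adjusted p = 0.198, with the block 0.108), and without NAO replicate 2 it was 2.57 (adjusted p = 0.0381).

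P2ry6 had log2 levels of 5.09 and 5.91 in NA2, 6.81 and 7.12 in NAO and 7.11 and 7.37 in NAOM. It stepped up with oligodendrocyte RNA, and NAOM overlapped NAO. The NAO step was 1.47 ± 0.36 (SE), a fold of 2.77, which did not pass without the block (limma, adjusted p = 0.172) and passed with it (1.47 ± 0.18, adjusted p = 0.00462). The NAOM step was 0.27 ± 0.36 (limma, adjusted p = 1). In NA2 the lower value belonged to the replicate made with astrocyte replicate 1 (5.24) and the higher to that made with astrocyte replicate 4 (6.75).

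P2rx4 followed the astrocyte RNA among the first 3 mixtures. Its log2 levels were 7.07 and 6.30 in NA1, 6.70 and 5.63 in NA2 and 6.04 and 5.36 in NA3. Within each replicate the level was lower the less astrocytic RNA was used, and replicate 2, made with the astrocyte culture that stood lowest for P2rx4, was below replicate 1 in all 3. NAO held 6.67 and 6.71 and NAOM 7.07 and 7.21, with steps of 0.52 ± 0.40 and 0.45 ± 0.40 that did not pass (limma, adjusted p = 0.848 and 1). P2rx7 stayed between 3.26 and 3.60 in all mixtures, below the array median.

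**Figure D4:**
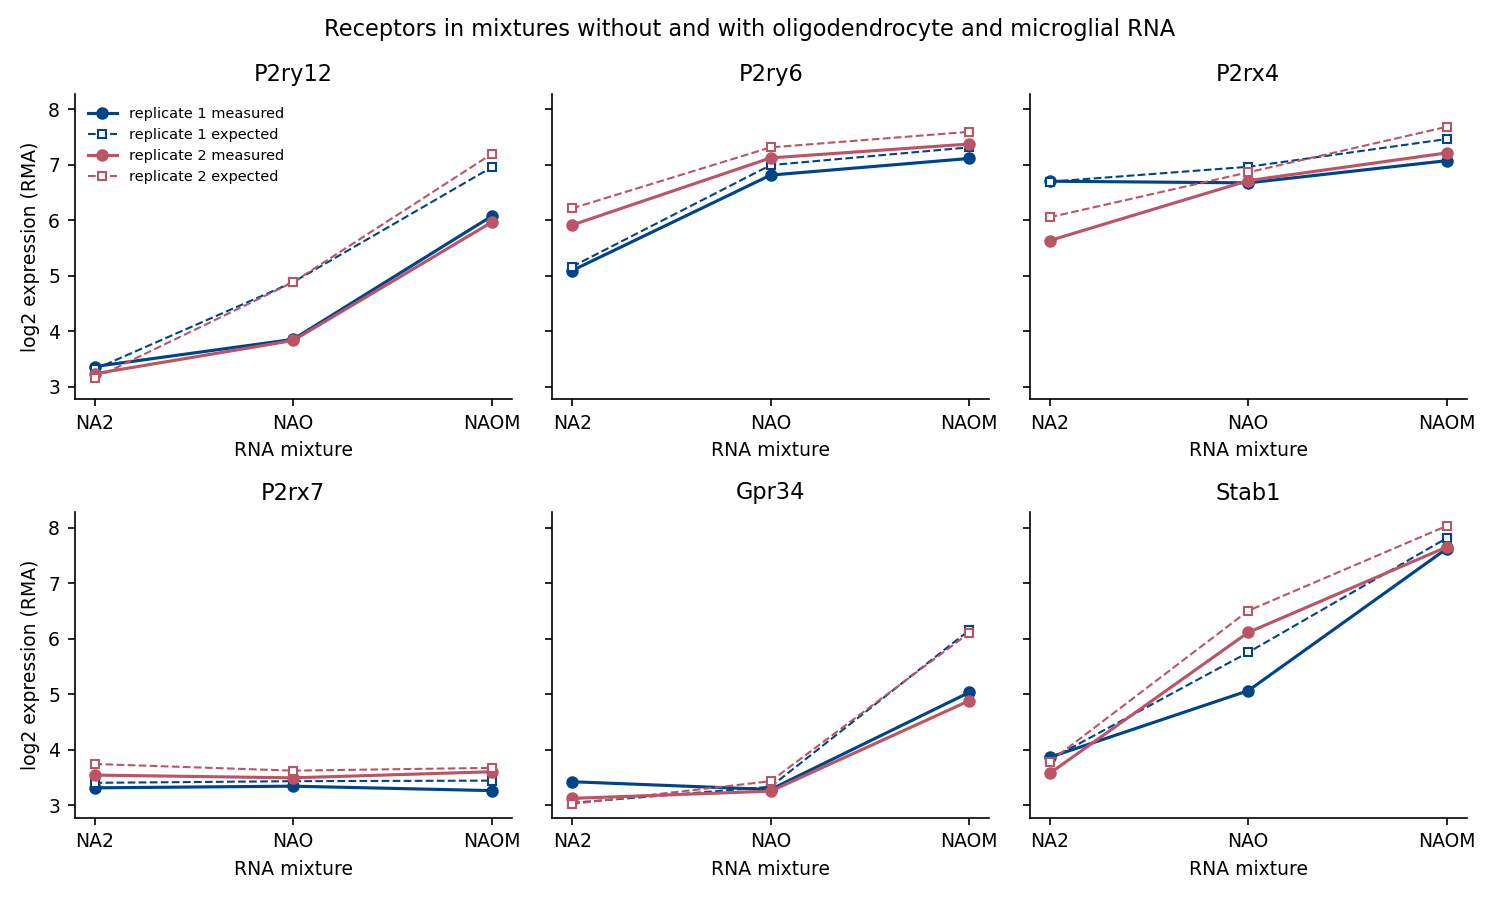
Log2 expression of the members in NA2, NAO and NAOM, by replicate (filled points), with the levels expected from the stated fractions of the parent cultures (open squares). Observed NAOM values of P2ry12 (6.07 and 5.96) and Gpr34 (5.03 and 4.88) lie above NAO and below the levels expected from linear sums, and P2ry6 changes little from NAO to NAOM.

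The expected level of a mixture is the log2 of the sum of its parents' linear levels, each times its fraction. By this sum, microglial RNA supplied 80.2% and 83.2% of the P2ry12 signal expected in the 2 NAOM arrays. Of the P2ry6 signal it supplied only 33.7% and 32.0%, and oligodendrocyte RNA supplied the largest share (51.0% and 46.3%). The expected P2ry12 levels were 6.95 and 7.19 in NAOM and 4.88 and 4.88 in NAO, and the observed levels were lower by 0.88 to 1.23 in all 4. Gpr34 was lower than expected by 1.12 and 1.22 in NAOM. P2ry6 was lower than expected by 0.18 to 0.21 in all 4 NAO and NAOM arrays. The NAOM step of P2ry12, 2.23 and 2.13 by replicate, was close to the expected 2.07 and 2.31, and that of Gpr34, 1.75 and 1.63, was short of 2.81 and 2.67. The direction against expectation depended on the scale of mixing. A fraction-weighted mean of log2 values is never above the linear sum, so a shift towards higher than expected is built in. With the fraction-weighted mean of log2 values as the expectation, P2ry12 in NAOM was higher than expected by 1.55 and 1.44, Gpr34 by 1.23 and 1.00, and P2ry6 in NAO and NAOM by 0.56 to 0.88. All of these are descriptions, since the arrays were brought to 1 distribution after hybridisation and low levels are compressed by background.

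The 13 microglia markers gave the frame for these steps. Between NAO and NA2, 12 of 13 passed as higher, and between NAOM and NAO 2 of 13 did, Csf1r by 1.47 ± 0.13 and Ctss by 1.65 ± 0.13 (limma, adjusted p = 0.0207 and 0.0144). With the block 13 and 5 of 13 passed. Their summed linear level was 357 in both NA2 arrays, 4990 to 5215 in NAO and 11640 to 12654 in NAOM. Of the 12 homeostatic genes, 1 passed between NAOM and NAO, Csf1r, and with the block 4 did. Of the other P2X, P2Y and adenosine receptors, 0 of 13 passed by limma at either step, with or without the block, and 0 of 13 had an unadjusted p under 0.05. The 5 other P2X and 5 other P2Y receptors were below the array median on every NAO and NAOM array, so a step in them could be missed.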

How the data were processed

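RNA from 16 culture and 10 mixture arrays of rat cortical cells was analysed. The authors deposited log2 expression values and used RMA (Robust Multi-array Average) and affy, per the submitters' processing notes, which give no version. RMA corrects background, brings arrays to a common distribution and summarises probes into probe sets, so low values are compressed. The 31099 deposited rows were used as they stand. After 57 control probe sets were left out, 31042 were tested with no filter, of which 20826 carried 1 gene symbol, 436 several and 9780 none.

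Cultures and mixtures were fitted separately in R 4.3.3 with the lmFit and eBayes functions of limma 3.58.1, 1 mean per culture or mixture, Benjamini-Hochberg adjusted over all probe sets. Calls needed an adjusted p under 0.05 and, for cultures, a log2 difference of at least 1. The members, gene lists and tests were chosen with earlier results of these data known. Genes were named if they were members, were most correlated with the members, or belonged to a list and passed or gave a role beside a member, the brightest probe set standing for a gene. Each microglial array was also set against each oligodendrocyte array.

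Replicate numbers did not pair the cultures (r of same-numbered residuals between -0.107 and 0.178). The labels tie them to shared parents in the mixtures, where r was 0.764 for NAO with NA2 and 0.771 for NAOM with NAO. Alternatives were a replicate block, median centring, renewed quantile normalization, the dimmest 25% of probe sets left out, trended and robust variance, compared groups alone, another fold minimum, other probe sets, other mixture expectations, another marker list and leaving out each replicate. Positions and promoters are from RefSeq tables (GRCr8). Protein sequences were not used here. Python 3.11.15, pandas 2.3.3, numpy 2.4.6 and matplotlib 3.10.9 were also used.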

Additional observations from a re-analysis of the deposited data

Results flagged for a closer look

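In 28 groups of 4 culture arrays (7 probe sets in 4 cultures), 4 had an array farther from its nearest neighbour than Dixon's 95% critical value of 0.829 of the group's range allows, where chance gives about 1 in 20. P2ry12 by its second probe set, 1368728_at, was 5.45 in microglial replicate 1 against 7.78 to 8.17 in the other 3. By the brighter probe set, 1380822_at, that array was also the lowest, at 9.06 against 9.95 to 10.24. P2rx4 was 6.65 in astrocyte replicate 4 against 7.38 to 7.43 in the others. Stab1 was 11.14 in microglial replicate 4, the array whose description reads as a mixture, against 10.81 to 10.87. P2rx7 was 3.63 in oligodendrocyte replicate 4 against 3.52 to 3.54, all below the array median. What sets these arrays apart was not tested.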

How the results depend on the processing

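Between microglial and oligodendrocyte cultures, each of the 90 combinations of a measured member or probe set with an alternative kept its direction and its side of the threshold. Without any minimum log2 difference, the called probe sets rose from 3277 to 8358 for microglia against oligodendrocyte cultures, and came to 11928 against astrocyte and 15903 against neuronal cultures, with 10637 and 12826 for oligodendrocyte against astrocyte and neuronal cultures. Leaving out each replicate gave 2958 to 3521, 4863 to 5373, 7820 to 8074, 4776 to 5221 and 6512 to 6827 in the same order. The mixtures depended more on the fit. NAO against NA2 called 341 probe sets, 1077 with the replicate block, 66 with the compared groups alone and 113 to 175 with a replicate left out. NAOM against NAO called 13, 37 with the replicate block, 8 without the dimmest 25%, 24 with trended and robust variance, 0 with the compared groups alone by limma (1211 at an unadjusted p under 0.05) and 1 to 15 with a replicate left out. With the compared groups alone, P2ry12 and Gpr34 no longer passed there (limma, adjusted p = 0.206 and 0.245). Fewer arrays estimate the spread in that fit, and what ended the calls was not tested.

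No difference that changed sign had been called. With a replicate left out, P2rx4 in NAO against NA2 ranged from -0.01 to 1.05. P2rx7 ranged from -0.01 to 0.20 for microglia against astrocytes, from -0.13 to 0.10 in NAO against NA2 and from -0.16 to 0.19 in NAOM against NAO, and Gpr34 from -0.15 to 0.15 in NAO against NA2. After renewed quantile normalization, NAO against NA2 gave 0.02 for both P2rx7 and Gpr34. The cause was not tested. The P2ry12 and Stab1 calls of NAO against NA2 were also lost under median centring (adjusted p = 0.0657 and 0.0527). P2rx7 and the second P2ry12 probe set are limited by their signal over background, and the number of arrays, 2 per mixture, limits the precision.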
